A study of Mus musculus with 6 samples.

Results

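The genes described are the adult alpha globins Hba-a1 and Hba-a2, the adult beta globins Hbb-bt and Hbb-bs, and the carbonic anhydrases Car1 and Car2, in RNA from mouse bone marrow stem cells. They were taken by gene symbol, and 6 of the 6 named symbols were found among the 14986 genes of the deposited table. Of the libraries, 3 were labelled ZCCHC8 KO and 3 wild type, and every library came from bone marrow LT-HSC, long-term haematopoietic stem cells, from which all blood lineages descend. Each library was made from 1500 sorted cells after red cell lysis and lineage depletion. ZCCHC8 holds together the nuclear exosome targeting complex, an adaptor that brings unstable nuclear transcripts to the RNA exosome for decay, and the comparison sets cells labelled as lacking it against normal ones. The sources used here do not give the knockout allele, any Cre driver, the strain, the age of the mice or the sort gate. Nor do they say that the libraries of a group came from separate animals, so p-values measure only the spread between these libraries, which may be technical. The 6 genes were chosen with their differences between these groups already known, so their levels and differences are given as a description, with no test.

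Adult haemoglobin is a tetramer of alpha and beta chains around haem, and its genes sit in an alpha and a beta cluster that are switched on late in red cell formation by GATA1, KLF1 and their partners. Carbonic anhydrases interconvert carbon dioxide and bicarbonate. Car1 is the cytosolic enzyme typical of the erythroid lineage, while Car2, the fast cytosolic enzyme, is made in red cells, in osteoclasts and in blood stem and progenitor cells. In bulk samples such as these, fewer cells of a type and less RNA per cell cannot be told apart.

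The alpha pair is shown first as sequence, because many reads match both copies. The coding sequences of Hba-a1 and Hba-a2, 429 bases each in GENCODE M21 (GRCm38), differ by 1 base, C381T from Hba-a1 to Hba-a2, with positions counted from the first base of the start codon. The windows around it lie in the last coding exon, on the plus strand at chr11:32284318-32284368 and chr11:32297135-32297185, with the differing base in capitals.
Hba-a1: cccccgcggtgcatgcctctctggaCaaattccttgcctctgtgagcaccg
Hba-a2: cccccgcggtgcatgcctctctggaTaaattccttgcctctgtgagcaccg
The coding sequences of Hbb-bt and Hbb-bs, 444 bases each, also differ by 1 base, T417C from Hbb-bt to Hbb-bs, on the minus strand at chr7:103812658-103812708 and chr7:103826667-103826717.
Hbb-bt: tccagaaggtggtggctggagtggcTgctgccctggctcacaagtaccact
Hbb-bs: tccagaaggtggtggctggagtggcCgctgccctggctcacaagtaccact
Of the distinct stretches of 50 bases in the annotated transcripts, 27.7% of those of Hba-a1 and 10.7% of those of Hba-a2 occurred in no other gene's transcripts. The share was 41.7% for Hbb-bt and 46.8% for Hbb-bs, and each globin shared its other stretches with its own partner alone. Car1 had 86.6% of its stretches to itself, sharing the rest with the pseudogene Gm5843, and Car2 had 100%. Values of a single globin copy therefore carry an uncertainty in the assignment of reads that the Car2 values do not.

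The promoters of the globins are shown as background. RefSeq (GRCm38.p6) gave a window for 4 of the 6 genes, all but Car1 and Car2. The last 110 bases before the annotated start are at chr11:32283562-32283671 and chr11:32296382-32296491 on the plus strand for Hba-a1 and Hba-a2. For Hbb-bt and Hbb-bs they are at chr7:103813924-103814033 and chr7:103827929-103828038 on the minus strand. Capitals mark 3 short motifs on either strand, the CACCC box core, the CCAAT box core and the TATAA box core.
Hba-a1 promoter: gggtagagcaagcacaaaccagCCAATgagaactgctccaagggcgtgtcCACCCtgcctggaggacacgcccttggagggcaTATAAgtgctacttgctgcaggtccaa
Hba-a2 promoter: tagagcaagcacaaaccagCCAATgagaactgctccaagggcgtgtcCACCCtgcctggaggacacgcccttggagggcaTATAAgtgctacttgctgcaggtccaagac
Hbb-bt promoter: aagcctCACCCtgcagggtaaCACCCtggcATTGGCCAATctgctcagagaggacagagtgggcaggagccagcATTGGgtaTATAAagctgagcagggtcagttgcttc
Hbb-bs promoter: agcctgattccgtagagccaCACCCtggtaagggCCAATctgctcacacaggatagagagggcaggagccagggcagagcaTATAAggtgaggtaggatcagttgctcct
The first is the core of the box that KLF1 binds, and the others are general promoter elements. Also searched was GATAA, the core of the site bound by GATA factors. The 250 bases before each of the 4 globin starts held all 4 motifs, with the GATA match 182 and 185 bases before the start in Hba-a1 and Hba-a2 and 204 and 209 bases before it in Hbb-bt and Hbb-bs. None of the matches in the globin windows overlapped another. Among windows of the same length for 27025 genes, read on both strands, 51.3% held the KLF1 box core, 34.5% the CCAAT core, 23.5% the TATA core and 23.0% the GATA core. All 4 motifs stood together in 272 windows, or 1.01%. These are matches of letters in a reference genome, not measured binding. The motifs were chosen as known promoter elements, so their presence in the globins is not a result of these data. Their part in the differences between the groups was not tested. The GENCODE models of the 4 globins begin further upstream than the RefSeq starts used here, inside or before these stretches. The alpha promoters are not independent cases, since their windows were identical over 247 bases once shifted. Those of the beta pair were identical at 51.0% of 249 bases in the best shift of up to 10 bases. Gaps were not allowed, so this may understate the likeness of the beta pair, which is not shown to be independent either.

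The table gives FPKM as the authors made them, that is, reads scaled to exon length and to the depth of the library. The reads behind the FPKM of a library, recovered from its smallest steps, came to between 18963353 and 25709654 in the libraries labelled KO and between 18059326 and 18909196 in those labelled wild type. Zcchc8 itself stood at 10.4, 5.54 and 5.92 FPKM in the libraries labelled KO and at 8.93, 5.24 and 5.16 FPKM in those labelled wild type, and the groups overlapped (exact two-sided permutation p = 0.5, with 0.1 the smallest possible). A value for the whole gene does not show whether single exons were lost. The knockout is thus not visible in its target, and directions refer to the libraries as labelled. All 6 genes passed the filter of a mean of 1 FPKM over the 6 libraries, and each also had a mean above 1 in either group alone.

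The alpha globins stood at low levels in the libraries labelled wild type and several-fold higher in those labelled KO. Hba-a1 (ENSMUSG00000069919.7, chr11:32283511-32284465, plus strand) had 17.5, 21.4 and 25.1 FPKM in labelled KO and 2.45, 4.78 and 3.45 FPKM in labelled wild type. Hba-a2 (ENSMUSG00000069917.7, chr11:32296489-32297298, plus strand) had 15.3, 16.2 and 19.8 FPKM in labelled KO and 1.33, 1.64 and 2.78 FPKM in labelled wild type. Every library labelled KO was above every library labelled wild type for either copy, and library 3 was the highest of those labelled KO for both. The ratio of means was 5.998 for Hba-a1 (21.4 ± 3.802 FPKM in labelled KO and 3.56 ± 1.17 FPKM in labelled wild type, SD, n = 3 each) and 8.93 for Hba-a2 (17.1 ± 2.39 FPKM in labelled KO and 1.91 ± 0.762 FPKM in labelled wild type). On the log2(FPKM + 1) scale the differences, labelled KO minus labelled wild type, were 2.31 ± 0.28 and 2.66 ± 0.29 (SE). This scale understates the change of low genes, and with a pseudocount of 0.1 the difference of Hba-a2 was 3.15.

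The alpha values rested on few reads in the libraries labelled wild type. Hba-a1 had 330 to 425 reads per library in labelled KO and 36 to 71 in labelled wild type, and Hba-a2 had 205 to 275 in labelled KO and 16 to 35 in labelled wild type. The lowest, the 16 reads of Hba-a2 in wild-type library 1, has a 95% Poisson interval of 9.15 to 26.0, below the interval of 178 to 235 for the 205 reads of KO library 2. The intervals cover counting error only, since amplified cDNA without molecular identifiers repeats molecules. Because assignment between the copies is uncertain, their sum is the firmer value. It was 32.8, 37.6 and 44.9 FPKM in labelled KO and 3.78, 6.42 and 6.23 FPKM in labelled wild type, a ratio of means of 7.02 and a log2 difference of 2.62 ± 0.24 (SE).

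**Figure D1:**
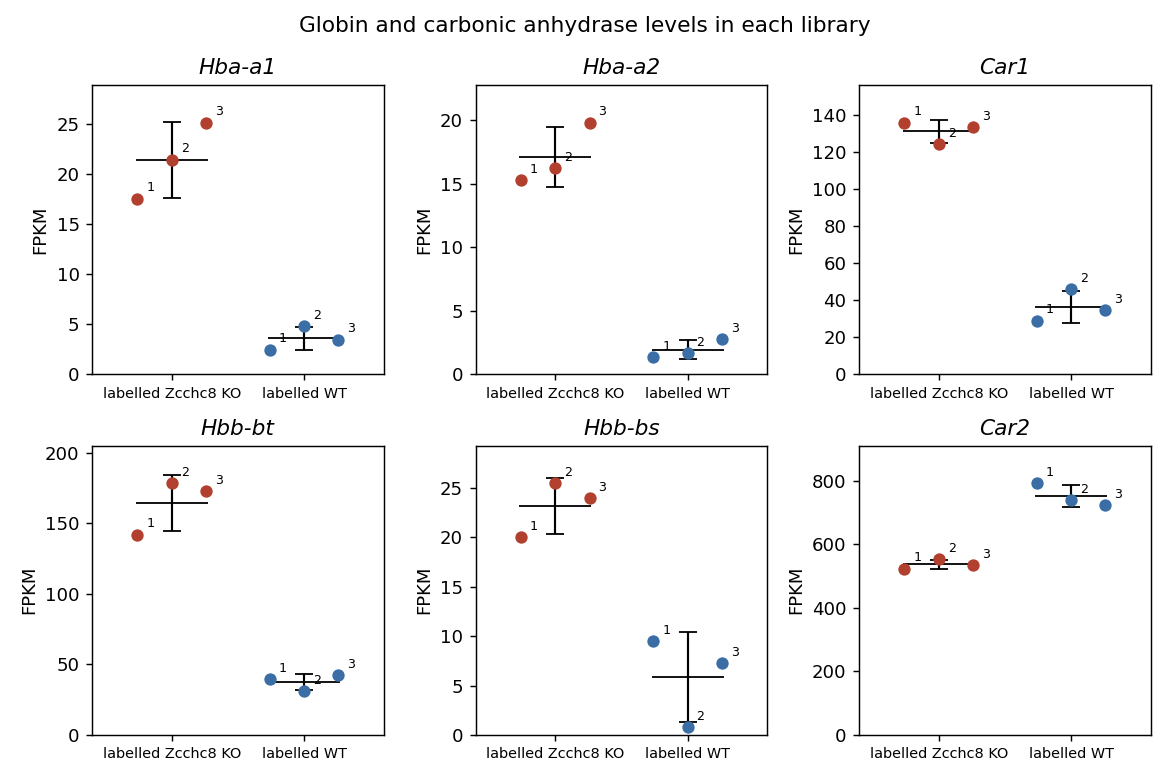
FPKM of each of the 6 genes (vertical axes, each from 0) in the libraries labelled Zcchc8 KO (red) and wild type (blue). Points are libraries with their replicate number, and bars are the mean ± SD of 3. The globins and Car1 lie higher in all 3 libraries labelled KO and Car2 lies lower, and Hbb-bs of wild-type library 2 stands apart at 0.783 FPKM.

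Hbb-bt was the most abundant globin in every library. Hbb-bt (ENSMUSG00000073940.3, chr7:103812524-103813996, minus strand) encodes a beta chain of adult haemoglobin and had 142, 178 and 173 FPKM in labelled KO and 39.3, 31.1 and 42.1 FPKM in labelled wild type. The groups did not overlap, with a ratio of means of 4.38 (164 ± 19.6 FPKM in labelled KO and 37.5 ± 5.73 FPKM in labelled wild type, SD, n = 3 each) and a log2 difference of 2.11 ± 0.15 (SE). These values rest on 2378 to 2567 reads per library in labelled KO and 400 to 560 in labelled wild type, so counting error is small beside the spread between libraries.

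Hbb-bs (ENSMUSG00000052305.6, chr7:103826534-103828096, minus strand), the other adult beta gene, had 20.1, 25.5 and 24.0 FPKM in labelled KO and 9.52, 0.783 and 7.23 FPKM in labelled wild type. Every library labelled KO was higher, but wild-type library 2 stood far below the others of its group, with 11 reads (95% Poisson interval 5.49 to 19.7) where libraries 1 and 3 had 132 and 105. The ratio of means was 3.97 (23.2 ± 2.80 FPKM in labelled KO and 5.84 ± 4.53 FPKM in labelled wild type) and the log2 difference 2.17 ± 0.58 (SE). Without wild-type library 2 the log2 difference was 1.37, so that library decides much of its size. Library 2 was also the lowest of its group for Hbb-bt and for the 4 globins summed (52.6, 38.3 and 55.6 FPKM in labelled wild type), but the highest for Hba-a1 and for Car1. The sum of the beta copies was 162, 204 and 197 FPKM in labelled KO and 48.8, 31.9 and 49.4 FPKM in labelled wild type, with a log2 difference of 2.11 ± 0.18 (SE).

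The carbonic anhydrases stood in opposite directions. Car1 (ENSMUSG00000027556.15, chr3:14766216-14808368, minus strand) had 136, 124 and 133 FPKM in labelled KO and 28.9, 45.8 and 34.6 FPKM in labelled wild type. Its ratio of means was 3.59 (131 ± 6.13 FPKM in labelled KO and 36.4 ± 8.61 FPKM in labelled wild type, SD, n = 3 each) and its log2 difference 1.84 ± 0.17 (SE). The libraries labelled KO lay close together, and the highest library labelled wild type, library 2, was well below them. Car2 (ENSMUSG00000027562.12, chr3:14886273-14900770, plus strand) had 523, 552 and 534 FPKM in labelled KO and 791, 739.7 and 723 FPKM in labelled wild type. It was lower in every library labelled KO, at 537 ± 14.7 FPKM in labelled KO and 751 ± 35.6 FPKM in labelled wild type, with a log2 difference of -0.48 ± 0.07 (SE). Its relative spread was the smallest of the 6 genes, on 25373 to 32586 reads per library in labelled KO and 32774 to 34607 in labelled wild type.

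By limma on log2(FPKM + 1), among genes that passed the filter, 27 of 11837 tested genes had an adjusted p under 0.05, or 0.228%, with 21 higher (0.177%) and 6 lower (0.0507%) in labelled KO. Hba-a1, Hba-a2, Hbb-bt and Car1 were among the 21, Car2 was among the 6, and Hbb-bs was in neither. The groups did not overlap for any of the 6 genes, with 5 higher and 1 lower in labelled KO, as for 1802 of the tested genes, or 15.2% (8.24% higher and 6.99% lower). The count of 27 was 19 without KO library 1, 13 without KO library 2 or without wild-type library 1 or 2, and 11 without library 3 of either group. Nothing is read from these counts, because the genes were chosen on this contrast. Ordered by their log2 difference, Hba-a2 was number 10 of the tested genes from the top, Hba-a1 15, Hbb-bs 18, Hbb-bt 19 and Car1 33. Car2 was number 1437 from the bottom, so its difference was modest in size, beside the small spread between its libraries.

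On the FPKM scale, which is per length, the 6 genes had the same order of mean levels in both groups. In labelled KO the order of means was Car2, Hbb-bt, Car1, Hbb-bs, Hba-a1 and Hba-a2, and the ranges over libraries overlapped between Hbb-bs and Hba-a1 and between Hba-a1 and Hba-a2, while those of Hbb-bt and Car1 lay apart at 142 to 178 and 124 to 136 FPKM. In labelled wild type the order was the same, with Hbb-bt (31.1 to 42.1 FPKM) and Car1 (28.9 to 45.8 FPKM) overlapping, and also Hbb-bs, Hba-a1 and Hba-a2 with each other. Among all genes of the table, Car2 ranked between 153 and 170 by FPKM in labelled KO and between 109 and 118 in labelled wild type. Hbb-bt ranked between 391 and 484 in labelled KO and between 1609 and 2131 in labelled wild type, and Car1 between 511 and 563 in labelled KO and between 1510 and 2297 in labelled wild type. The alpha copies ranked between 2638 and 3874 in labelled KO and between 7607 and 10957 in labelled wild type. Even in labelled KO, the globins together came to 195, 241 and 242 FPKM, less than Car2 alone.

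Shares within a library do not depend on its scaling. Of the alpha reads, 58.3%, 61.7% and 60.7% were assigned to Hba-a1 in labelled KO and 69.2%, 78.0% and 60.2% in labelled wild type. The 95% Wilson interval of wild-type library 1, 55.7% to 80.1%, covers all 3 values of labelled KO. That of wild-type library 2, 68.5% to 85.3%, lies above them. Of the beta reads, Hbb-bs held 13.4%, 13.5% and 13.2% in labelled KO and 20.9%, 2.68% and 15.8% in labelled wild type. The 3 libraries labelled KO were alike in this share, while those labelled wild type lay on either side of them, and the interval of wild-type library 2, 1.501% to 4.73%, was clear of all others. These intervals cover counting error only, and over all genes the libraries of a group differed by more than that. They also leave out the uncertain assignment of reads between copies.

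Alpha FPKM stood at 0.202, 0.185 and 0.228 of beta FPKM in labelled KO and at 0.0775, 0.201 and 0.126 in labelled wild type, so the groups overlapped. Beta exceeded alpha in each library, and the annotated exon lengths (812 and 667 bases for Hba-a1 and Hba-a2, 703 and 768 for Hbb-bt and Hbb-bs) enter that ratio. The ratio of Car2 to Car1 in FPKM was 3.86, 4.45 and 4.01 in labelled KO and 27.4, 16.1 and 20.9 in labelled wild type, and these did not overlap. Car1 held 11.8%, 10.4% and 11.4% of the reads of the pair in labelled KO and 1.85%, 3.09% and 2.41% in labelled wild type. Hbb-bt and Car1 were near each other in most libraries, with Hbb-bt at 1.05, 1.44 and 1.30 times Car1 in labelled KO and at 1.36, 0.679 and 1.22 times in labelled wild type.

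**Figure D2:**
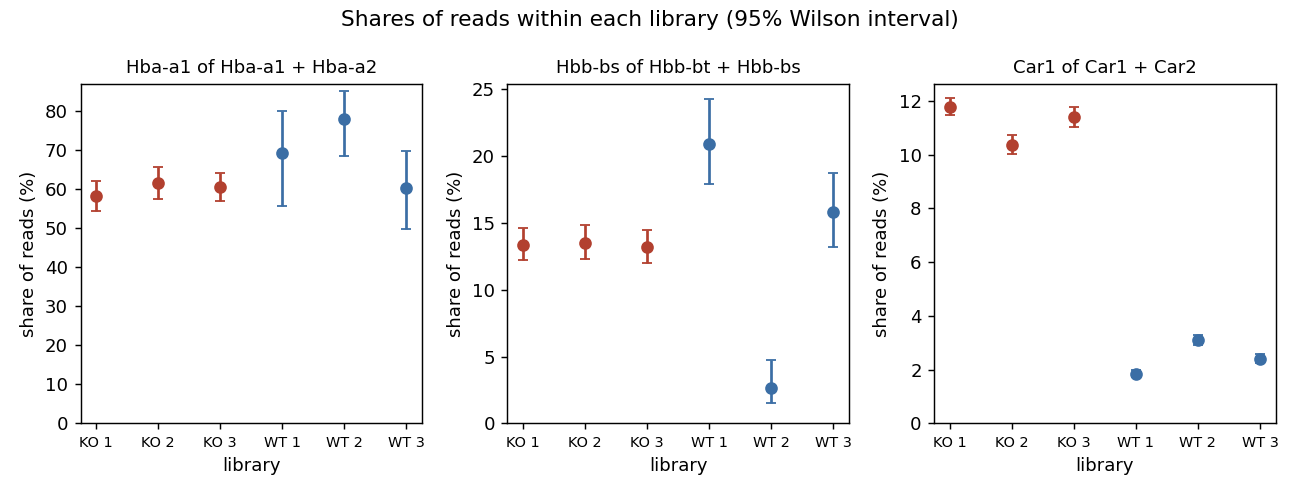
Share of reads (%, vertical axes from 0) within each library for Hba-a1 of the alpha pair, Hbb-bs of the beta pair and Car1 of Car1 and Car2, with 95% Wilson intervals, for KO-labelled (red) and wild-type-labelled libraries (blue). The intervals cover counting error only. Wild-type library 2 stands at 78.0% and 2.68% in the first panels, and Car1 takes 10.4% to 11.8% in labelled KO against 1.85% to 3.09% in labelled wild type.

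The genes lie in 3 clusters, and none of the tested genes beside them passed. The alpha cluster on chromosome 11 also holds Nprl3, a regulator of mTORC1 signalling whose introns carry the alpha globin enhancers, the DNA repair glycosylase gene Mpg and the minor spliceosome gene Snrnp25. Nprl3 averaged 2.04 ± 1.62 FPKM in labelled KO and 2.06 ± 0.807 FPKM in labelled wild type, Mpg 2.46 ± 0.530 FPKM in labelled KO and 4.19 ± 1.93 FPKM in labelled wild type, and Snrnp25 51.4 ± 14.5 FPKM in labelled KO and 42.3 ± 10.3 FPKM in labelled wild type (SD, n = 3 each). Nprl3 and Mpg overlap on opposite strands, and their reads cannot be told apart if strand was not used. Of the 34 other coding genes annotated within 250 kb of the start of Hbb-bt, 29 are olfactory receptor genes and only Hbb-bs was among the genes analysed. Car1 and Car2 are neighbours on chromosome 3 with Car3 between them and Car13 beyond Car1. Car3 had 9.41, 6.07 and 3.52 FPKM in labelled KO and 8.33, 7.67 and 8.55 FPKM in labelled wild type, and Car13 had 6.60, 1.72 and 4.16 FPKM in labelled KO and 10.1, 5.11 and 3.36 FPKM in labelled wild type. The groups overlapped for both genes. Near the alpha globins, Ubtd2 averaged 4.17 ± 1.17 FPKM in labelled KO and 2.46 ± 3.16 FPKM in labelled wild type and Stk10 5.74 ± 3.07 FPKM in labelled KO and 3.70 ± 1.88 FPKM in labelled wild type. Near Car1, E2f5 averaged 4.86 ± 3.68 FPKM in labelled KO and 4.90 ± 2.56 FPKM in labelled wild type and Lrrcc1 6.07 ± 0.919 FPKM in labelled KO and 7.68 ± 1.41 FPKM in labelled wild type. In all, 9 neighbours within 250 kb of a start were tested. None passed by limma over all genes, none had an unadjusted p under 0.05, and none was called by limma-voom on recovered reads.

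**Figure D3:**
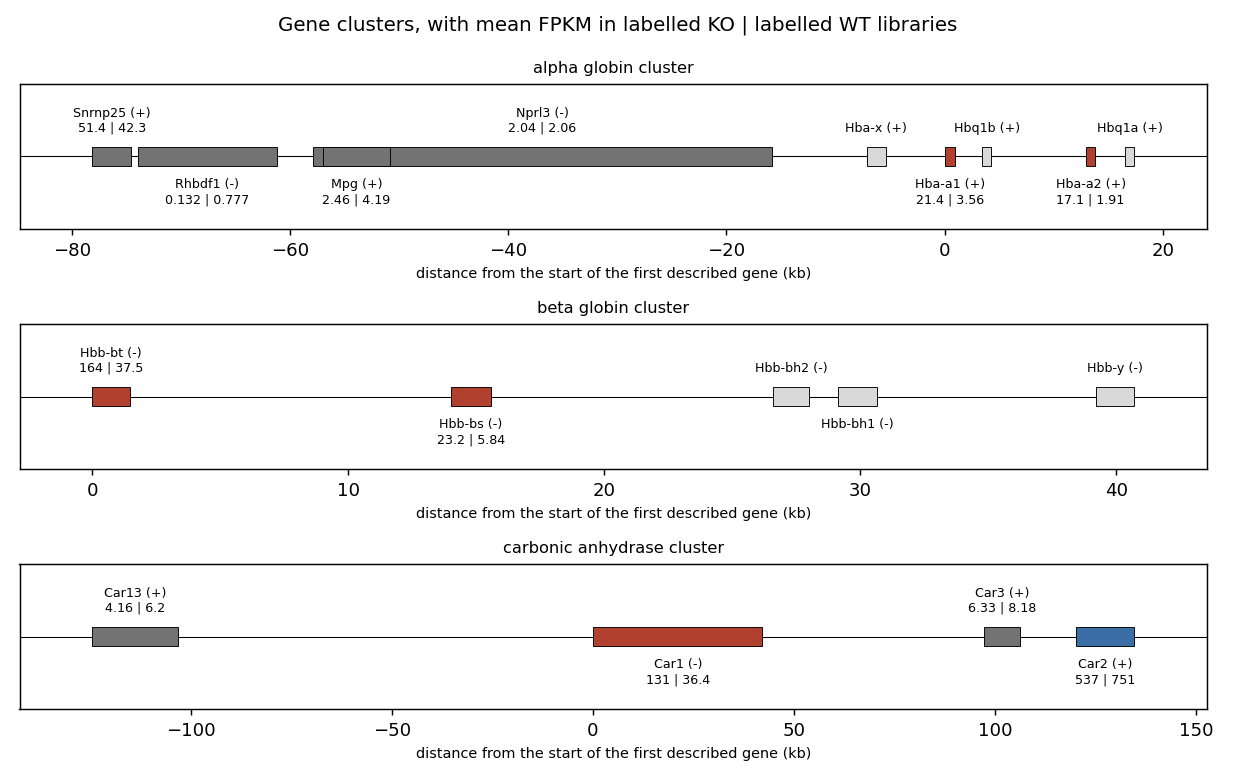
The 3 gene clusters drawn to scale, with distance in kb from the first described gene on the horizontal axis and strand in brackets. Numbers are mean FPKM in labelled KO | labelled wild type; red and blue boxes are described genes that were higher and lower in labelled KO, dark grey boxes other genes of the table, and pale boxes genes not analysed here. Hbb-bt stands at 164 FPKM in labelled KO and 37.5 FPKM in labelled wild type, while Nprl3 stands at 2.04 FPKM in labelled KO and 2.06 FPKM in labelled wild type.

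The related genes come from lists chosen with earlier results of these data known, and counts are over all genes tested. At an unadjusted p under 0.05, limma had 4.87% of all tested genes higher and 4.33% lower in labelled KO. By value, 5946 of the 11837 tested genes were higher and 5891 lower. By limma-voom on recovered reads no gene of the 6 lists that follow was called. None of 13 other globins listed, the embryonic and theta-like ones among them, was among the genes analysed. Of 14 other carbonic anhydrases 9 were in the table and 4 tested, and none passed. These were Car3, Car13, the hypoxia-induced membrane enzyme Car9 (6.14 ± 2.70 FPKM in labelled KO and 7.88 ± 0.898 FPKM in labelled wild type) and the catalytically inactive relative Car11 (1.27 ± 1.41 FPKM in labelled KO and 1.71 ± 1.08 FPKM in labelled wild type). The 4 were lower by value, with a median log2 difference of -0.40 against 0.00 over all tested genes, none at an unadjusted p under 0.05, and their highest value was the 10.1 FPKM of Car13 in wild-type library 1. Car5a, Car5b, Car7, Car12 and Car14 were below the filter.

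Of the bicarbonate and proton transporters, which move the products of carbonic anhydrases, none of 8 tested passed, and 1 had an unadjusted p under 0.05. That gene was the monocarboxylate transporter Slc16a1, at 25.7 ± 0.479 FPKM in labelled KO and 18.6 ± 1.25 FPKM in labelled wild type (limma adjusted p = 0.463). The scaffold gene Slc9a3r1 stood at 73.3 ± 8.70 FPKM in labelled KO and 92.8 ± 21.8 FPKM in labelled wild type and the anion exchanger Slc4a2 at 2.34 ± 0.240 FPKM in labelled KO and 2.67 ± 0.524 FPKM in labelled wild type (SD, n = 3 each).

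Of the genes that supply haem, iron and stable chains, 1 of 22 tested rose and none fell. Glrx5, which helps build iron-sulfur clusters in mitochondria, rose to 33.7, 29.6 and 23.2 FPKM in labelled KO, against 9.28, 9.89 and 6.54 FPKM in labelled wild type (log2 difference 1.64 ± 0.23 SE, limma adjusted p = 0.0339). Its call ended when any 1 library was left out, with adjusted p from 0.0687 to 0.145 and log2 differences from 1.48 to 1.79. It also ended without the filter, without the variance trend, with the replicate block and by limma-voom, with adjusted p from 0.0572 to 0.151. By value 13 of the 22 were higher and 9 lower, with a median of 0.13, and 2 had an unadjusted p under 0.05, both higher. The most abundant were the ferritin heavy chain Fth1 (374 ± 19.5 FPKM in labelled KO and 421 ± 41.2 FPKM in labelled wild type), the iron chaperone Pcbp1 (244 ± 8.05 FPKM in labelled KO and 161 ± 25.5 FPKM in labelled wild type), the ferritin light chain Ftl1 (41.4 ± 6.15 FPKM in labelled KO and 53.1 ± 6.01 FPKM in labelled wild type) and the haem oxygenase Hmox2 (43.5 ± 6.93 FPKM in labelled KO and 50.5 ± 6.53 FPKM in labelled wild type). Pcbp1 had the second unadjusted p under 0.05 and an adjusted p of 0.129 by limma. Alas2 and the alpha chain chaperone Ahsp were not analysed here.

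None of 26 erythroid transcription regulators passed, with 6 higher and 2 lower at an unadjusted p under 0.05 and a median log2 difference of -0.05. The 6 were Klf1, Gata1, Lmo2, E2f2, E2f4 and Mbd2, and the 2 were Lyl1 and Foxo3. Of all 26, 11 were higher and 15 lower by value. Klf1, the CACCC-binding activator of the adult beta globin gene, had 90.8, 82.1 and 49.9 FPKM in labelled KO and 21.0, 27.9 and 41.3 FPKM in labelled wild type. The groups did not overlap, and its adjusted p was 0.177 by limma (log2 difference 1.29 ± 0.28 SE). Gata1, the main erythroid GATA factor, had 59.3, 59.6 and 42.6 FPKM in labelled KO and 42.7, 36.7 and 38.7 FPKM in labelled wild type, with an adjusted p of 0.496. Klf1, Gata1 and the others with an unadjusted p under 0.05, apart from Lmo2 and Lyl1, were chosen after their values were seen. Of the 4 most abundant, Lmo2, a bridging factor of the erythroid complex, stood at 441 ± 29.5 FPKM in labelled KO and 387 ± 21.7 FPKM in labelled wild type, and Lyl1, a partner of its complexes in stem cells, at 137 ± 18.7 FPKM in labelled KO and 207 ± 13.2 FPKM in labelled wild type. Nfe2, of the beta globin control region, stood at 93.9 ± 3.42 FPKM in labelled KO and 106 ± 9.83 FPKM in labelled wild type and Gata2 at 93.5 ± 12.1 FPKM in labelled KO and 90.3 ± 5.51 FPKM in labelled wild type. In FPKM, each of these was above either alpha globin in every library.

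**Figure D4:**
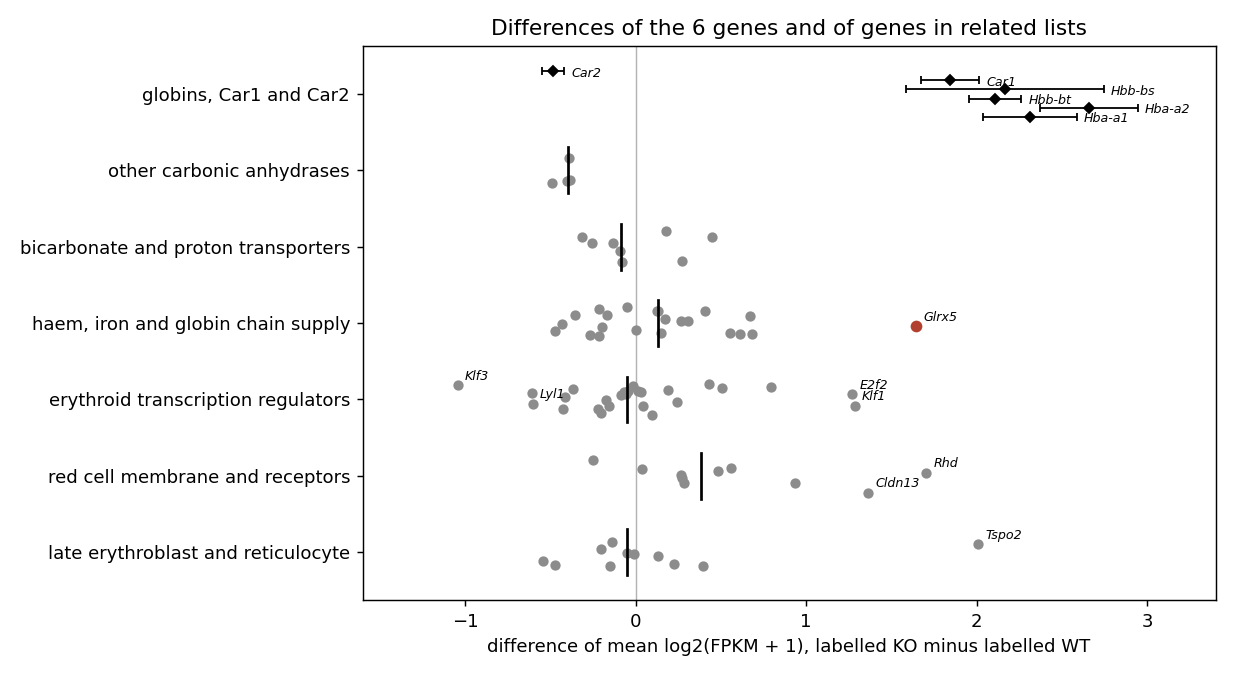
Difference of mean log2(FPKM + 1), labelled KO minus labelled wild type (horizontal axis), for the 6 genes (diamonds, ± SE) and for tested genes of 6 related lists (points; red where the limma adjusted p was under 0.05; vertical bars are list medians). Glrx5 at 1.64 is the red point, while Klf1, Rhd and Tspo2 reached 1.29 to 2.01 without passing, and were labelled in the plot after their values were seen.

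The lists of red cell markers, which leave out the described globins and carbonic anhydrases, gave no called gene. Of 21 genes of the red cell membrane and erythroid receptors 17 were in the table and 10 tested, and none passed, with 3 higher at an unadjusted p under 0.05, 9 higher by value and a median of 0.38. The list summed to between 205 and 243 FPKM in labelled KO and between 148 and 179 FPKM in labelled wild type. The Rh protein gene Rhd, chosen after its values were seen, had 3.07, 6.85 and 12.4 FPKM in labelled KO and 0.764, 1.99 and 1.36 FPKM in labelled wild type (limma adjusted p = 0.267). The most abundant were Gypc, a membrane sialoglycoprotein (92.7 ± 21.3 FPKM in labelled KO and 76.3 ± 13.6 FPKM in labelled wild type), the water channel Aqp1 (62.8 ± 3.01 FPKM in labelled KO and 44.7 ± 3.48 FPKM in labelled wild type), the lipid transporter Mfsd2b (20.3 ± 5.12 FPKM in labelled KO and 16.2 ± 2.01 FPKM in labelled wild type) and the erythropoietin receptor Epor (18.0 ± 4.92 FPKM in labelled KO and 14.6 ± 2.53 FPKM in labelled wild type).

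Late erythroblast and reticulocyte genes lay on both sides of 0. Of 15 genes 11 were in the table and tested, none passed, 2 were higher at an unadjusted p under 0.05 and the median was -0.05. By value 4 of the 11 were higher and 7 lower. The list summed to between 1160 and 1335 FPKM in labelled KO and between 1041 and 1177 FPKM in labelled wild type, and most of that is the antioxidant enzyme Gpx1 (1058 ± 76.1 FPKM in labelled KO and 905 ± 54.3 FPKM in labelled wild type), which many cells make. Hemgn, a nuclear protein gene of erythroid cells, stood at 41.8 ± 11.2 FPKM in labelled KO and 31.4 ± 8.25 FPKM in labelled wild type, Cat, catalase, at 45.7 ± 0.944 FPKM in labelled KO and 48.2 ± 10.8 FPKM in labelled wild type and the mitophagy receptor Bnip3l at 43.4 ± 8.26 FPKM in labelled KO and 47.4 ± 3.79 FPKM in labelled wild type. Tspo2, an erythroid relative of the mitochondrial translocator protein gene and chosen after its values were seen, had 5.44, 5.02 and 4.35 FPKM in labelled KO and 0, 0.508 and 1.12 FPKM in labelled wild type (limma adjusted p = 0.116). Tspo2 averaged under 1 FPKM in labelled wild type and passed the filter only through the libraries labelled KO. The part of red cell RNA in the globin values was not tested.

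Stem cell identity and other lineages were read from marker lists. All 14 stem cell markers were in the table, and among the most abundant were Ly6a (153 ± 29.3 FPKM in labelled KO and 129 ± 26.4 FPKM in labelled wild type), Pdzk1ip1 (57.9 ± 7.06 FPKM in labelled KO and 91.1 ± 6.097 FPKM in labelled wild type) and Procr (39.1 ± 8.43 FPKM in labelled KO and 52.6 ± 4.56 FPKM in labelled wild type). The sum of all 14 was between 398 and 444 FPKM in labelled KO and between 527 and 588 FPKM in labelled wild type, with 7 of 14 lower at an unadjusted p under 0.05 and none passing over all genes. By value 4 of the 14, Ly6a among them, were higher and 10 lower, with a median log2 difference of -0.40. Eosinophil, basophil and mast cell genes summed to between 301 and 329 FPKM in labelled KO and between 103 and 125 FPKM in labelled wild type. Gata2, with the means given above, is in this list and makes up most of the sum in labelled wild type. Of the 9 tested genes 7 were higher and 2 lower by value, with 6 higher and 0 lower at an unadjusted p under 0.05. Those that rose were 4, Prg2, Prg3, Epx and Ear6, with means of 13.1 to 127 FPKM in labelled KO and 0.0386 to 0.213 FPKM in labelled wild type. These 4 passed the filter of 1 FPKM only through the libraries labelled KO, so a call could only be higher. Neutrophil and monocyte genes summed to between 3945 and 4358 FPKM in labelled KO and between 3095 and 3243 FPKM in labelled wild type, and S100a9 alone of 13 tested rose. S100a9 averaged 2003 FPKM in labelled KO and 1386 FPKM in labelled wild type, a large part of these sums. The list went both ways, with 8 of the 13 higher and 5 lower by value. At an unadjusted p under 0.05, 6 were higher and 3 lower. Progenitor genes summed to between 290 and 311 FPKM in labelled KO and between 238 and 263 FPKM in labelled wild type, and 2 of 9 tested rose, Cd48 (105 ± 4.21 FPKM in labelled KO and 49.9 ± 4.05 FPKM in labelled wild type) and Dntt (15.7 ± 3.67 FPKM in labelled KO and 1.37 ± 0.685 FPKM in labelled wild type). Of the 9, 5 were higher and 4 lower by value, with 3 higher and 1 lower at an unadjusted p under 0.05. B cell genes summed to between 108 and 126 FPKM in labelled KO and between 816 and 928 FPKM in labelled wild type, and Igkc, at 0, 0 and 1.35 FPKM in labelled KO and 774, 746 and 866 FPKM in labelled wild type, alone of 7 tested fell. Igkc averaged under 1 FPKM in labelled KO and passed the filter only through the libraries labelled wild type. Without Igkc the B cell list summed to between 108 and 125 FPKM in labelled KO and between 61.8 and 77.4 FPKM in labelled wild type. Of its tested genes 5 of 7 were higher by value, all 5 at an unadjusted p under 0.05 and none passing, with a list median of 1.33. None passed among megakaryocyte genes (536 to 589 FPKM summed in labelled KO and 465 to 533 FPKM in labelled wild type), T and NK cell genes (310 to 324 FPKM in labelled KO and 191 to 233 FPKM in labelled wild type), macrophages of erythroblastic islands (24.3 to 36.4 FPKM in labelled KO and 13.4 to 30.5 FPKM in labelled wild type) or endothelial and stromal genes (19.4 to 22.5 FPKM in labelled KO and 12.9 to 19.1 FPKM in labelled wild type). In that order, these lists had 13, 4, 5 and 4 tested genes. By value 7, 3, 2 and 3 of them were higher and 6, 1, 3 and 1 lower. At an unadjusted p under 0.05, 3, 2, 1 and 0 were higher and 2, 0, 0 and 0 lower. By limma-voom on recovered reads, 1 gene of these marker lists was called, in the neutrophil and monocyte list. The part of these other cells in the globin and carbonic anhydrase values was not tested.

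The genes whose pattern over the 6 libraries was most like that of the globins and Car1 were found by Pearson's r on log2(FPKM + 1) with the mean of their standardised profiles, among named genes averaging 5 FPKM or more. These were the endocytic adaptor gene Necap2 (r = 0.998), Prg2 (0.996) and Epx (0.995) of eosinophil granules, profilin Pfn1 (0.994), the calprotectin subunit S100a9 (0.993) and Prg3 (0.991). Necap2 had 32.9, 34.5 and 36.8 FPKM in labelled KO and 19.9, 18.3 and 21.0 FPKM in labelled wild type. Those most like Car2 were Erdr1 (r = 0.985), the phosphatase Dusp2 (0.981), the ubiquitin ligase Rnf181, the chromatin regulator Ankrd11, Igkc and the SUMO ligase Pias3 (each 0.977). Dusp2 had 69.6, 65.8 and 63.8 FPKM in labelled KO and 104, 96.5 and 92.1 FPKM in labelled wild type. The 6 libraries fall into the 2 labelled groups, so r is high for any gene that separates them, and it is given as a description.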

How the data were processed

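Per the labels' protocols, total RNA of 1500 sorted cells was turned into amplified cDNA, of which 500 pg entered a transposase library kit. Per the submitters' processing notes, fastp, Bowtie2 and featureCounts were used with build mm10. The sources used here give no versions, strand setting or rule for multi-mapping reads. The authors deposited 1 FPKM value per gene symbol and library. Of the 14986 genes, 14985 were at 0 in fewer than 3 libraries, so almost no gene at 0 throughout a group is among them. Since Bowtie2 aligns reads without gaps at introns, short genes with several exons, such as the globins, can come out low.

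Symbols were matched to GENCODE M21 (GRCm38) for 14671 genes (97.9%). FPKM times exon length gave reads, and 98.0% of values under 100 reads were whole within 0.05. The filter kept 11837 genes averaging 1 FPKM or more. These were tested, two-sided, with limma 3.58.1 (R 4.3.3) on log2(FPKM + 1), with eBayes trend on, Benjamini-Hochberg adjustment over all of them and a threshold of 0.05. Groups and replicate numbers came from the titles. The 6 genes, the 16 lists and the rules were chosen with earlier results of these data known. Named were the 6 genes, called list members, up to 4 of the most abundant tested members of a list, every other carbonic anhydrase, Zcchc8, neighbours within 250 kb, the 6 genes of highest r with either profile, and genes marked as chosen later. Some genes are not reported here by name, though they count in their lists. The fit was tested on simulated data with 200 changed genes. It recovered 17.7% of genes changed by a log2 of 1 and 61.0% of those changed by a log2 of 2. Of its calls, 4.49% were false. The simulated errors were normal and independent, with each gene's own spread, so that share may not hold for the real calls. With such recovery, a gene that did not pass may still differ between the groups. In chi-square tests on recovered reads, pairs of libraries in a group were further apart than counting error allows, at 53.0 to 75.1 per gene. Alternatives changed the pseudocount, filter, scaling, variance model, block, copies and libraries. Figures were drawn with matplotlib 3.10.9.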

Additional observations from a re-analysis of the deposited data

How the results depend on the processing

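The 6 genes kept the direction of their difference under every alternative run for them: pseudocount 0.1, no filter, a mean of at least 5 FPKM, 3 scalings (median of ratios, quantiles, TPM), no variance trend, the block, voom on recovered reads, summed copies (globins only), scaling without ribosomal protein, globin and carbonic anhydrase genes, and each library left out. Only Hba-a2 moved by more than the spread between replicates, at 2.66 as reported, 3.15 with a pseudocount of 0.1 and 3.17 by voom. With 1 library left out, log2 differences ran from 2.13 to 2.50 for Hba-a1, 2.51 to 2.86 for Hba-a2, 1.98 to 2.21 for Hbb-bt, 1.37 to 2.65 for Hbb-bs, 1.69 to 2.02 for Car1 and -0.51 to -0.45 for Car2. The count of changed genes was 27, and 11 to 19 with 1 library left out, 8 without the variance trend and 8 by voom (5 higher and 3 lower), and the cause was not tested. With the replicate number as a block it was 11 (10 higher and 1 lower). Deviations of same-numbered libraries from their group means had correlations of 0.024, 0.0071 and 0.0037, so the numbers are not taken to pair the samples. The 1 call in the haem and iron list, Glrx5, went to 0 without a filter, without the trend, with the block, by voom and with any 1 library left out (0 to 0). Among genes that did not pass, the sign turned for Gata2 by quantiles (-0.0017), and with 1 library left out for Gata2 (-0.028 to 0.15), Bnip3l (-0.23 to 0.026), Zcchc8 (-0.11 to 0.37), Car11 (-0.86 to 0.10) and Cat (-0.24 to 0.067). No scaling moved the median of all genes by over 0.1. Depth limits the alpha globins and Hbb-bs most, at 11 to 132 reads in wild-type libraries.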
